A study of Homo sapiens with 9 samples.

Results

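The squamous lineage transcription factors described here are 9 human genes chosen by name: TP63, SOX2, SOX15, TFAP2A, TFAP2C, PAX9, BNC1, OVOL1 and ZNF750. All 9 were among the 59107 gene entries of the deposited tables, and 7 of them were among the 13777 genes that reached 1 FPKM in at least 3 libraries and could be tested. FPKM is a level of fragments per kilobase of transcript, scaled to the size of the library. The cells were HK1, an established line from a human nasopharyngeal carcinoma, grown in medium with serum, and their RNA was sequenced. Cells were transfected at 100 nM with an siRNA against E2F1, an siRNA against E2F3 or a non-targeting control siRNA, and RNA was taken after 48 h (3 libraries per group, 9 in all). E2F1 and E2F3 are transcription factors that activate the genes of S phase once the retinoblastoma protein releases them. The sources used here do not give the siRNA sequences or say whether 1 siRNA or a pool was used for each target, nor whether each library stands for a culture of its own. The p-values below therefore speak to the spread among these 9 libraries, which may be technical.

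p63, the product of TP63, keeps the basal cells of stratified epithelia proliferating and switches on their keratins, integrins and desmosome genes. SOX2 works beside it in basal cells and is known, with TP63, as an amplified gene of squamous carcinomas. AP-2 alpha and AP-2 gamma (TFAP2A and TFAP2C) open and activate epidermal genes, PAX9 and BNC1 mark oral and basal keratinocytes, and SOX15 is a SOX factor of stratified epithelia. OVOL1 and ZNF750 act later, when keratinocytes leave the basal layer and differentiate. The comparison asks how the RNA levels of these factors stand when E2F1 or E2F3 is depleted.

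The promoter windows of the 3 factors that changed after both siRNAs are shown, because a direct E2F site would be looked for there. They are RefSeq windows of 250 bases before to 50 bases after an annotated start (GRCh38.p14), written in the direction of the gene: TP63 at chr3:189631139-189631438 on the plus strand, SOX2 at chr3:181711675-181711974 on the plus strand and TFAP2A at chr6:10419610-10419909 on the minus strand. Capitals mark the matches found, namely CCAAT boxes and a TATA box read on the reverse strand in TP63, an AP-2 motif and a reverse CCAAT box in SOX2, and a TATA box in TFAP2A.
TP63: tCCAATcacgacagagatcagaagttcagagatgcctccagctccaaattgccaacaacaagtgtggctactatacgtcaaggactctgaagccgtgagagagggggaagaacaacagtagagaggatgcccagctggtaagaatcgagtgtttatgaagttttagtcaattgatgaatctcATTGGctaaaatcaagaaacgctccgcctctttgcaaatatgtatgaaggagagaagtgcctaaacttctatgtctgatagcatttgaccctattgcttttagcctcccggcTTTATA
SOX2: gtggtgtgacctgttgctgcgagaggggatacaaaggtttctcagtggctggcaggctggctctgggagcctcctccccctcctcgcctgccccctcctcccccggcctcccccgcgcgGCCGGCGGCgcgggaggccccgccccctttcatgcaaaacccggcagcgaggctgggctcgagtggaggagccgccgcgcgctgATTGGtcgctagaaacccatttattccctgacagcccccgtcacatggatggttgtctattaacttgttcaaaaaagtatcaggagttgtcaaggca
TFAP2A: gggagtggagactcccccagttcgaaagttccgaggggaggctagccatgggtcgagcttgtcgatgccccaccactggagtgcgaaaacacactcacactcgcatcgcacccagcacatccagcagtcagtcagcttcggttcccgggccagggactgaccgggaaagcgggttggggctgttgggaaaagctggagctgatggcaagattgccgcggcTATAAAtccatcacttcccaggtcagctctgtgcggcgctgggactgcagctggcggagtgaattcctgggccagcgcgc
Windows were found for 5 of the 9 members (TP63, SOX2, TFAP2A, PAX9 and BNC1), 8 windows in all. None held an E2F motif on either strand (searched as TTTGGCGC, TTTCCCGC, TTTGCCGC and TTTCGCGC), which 3.31% of 35116 windows held. The AP-2 motif GCCNNNGGC, which reads the same on both strands, was in 23.2% of all windows. It lay 131 bases before the start of SOX2 and in both windows of BNC1, 154 bases before the start in the first, and 155 and 95 bases before it in the second. CCAAT on either strand was in 34.6% of all windows, and lay 249 and 68 bases before the TP63 start, 47 bases before that of SOX2 and 86 bases before the start of the second PAX9 window. TATAAA on either strand was in 11.5% of all windows and lay 30 bases before the TFAP2A start and, on the reverse strand, from base 45 after the TP63 start. The motif known for p63 and its relatives, CATG and CATG with any 6 bases between them (0.373% of all windows) and the SOX motif AACAATG (3.33%) were in none of the 8. No 2 of the matched motifs overlapped, and a missing match says only that these letters are not in the window. The TP63 window is that of the upstream start, so the downstream start of this gene was not searched. Of its 12 coding transcripts in GENCODE 29, 5 start within 0.1 kb of that end of the gene and 7 start 158.2 to 158.4 kb downstream, the start that gives the shorter ΔN proteins. The deposited level pools them, so which form was measured is not told apart.

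The targeted genes were lower in the libraries labelled with their siRNA. E2F1 had 7.17, 7.95 and 7.33 FPKM after E2F1 siRNA, against 19.85, 19.53 and 20.2 FPKM after control siRNA. E2F3 had 12.61, 10.52 and 11.02 FPKM after E2F3 siRNA, against 24.74, 27.17 and 24.42 FPKM after control siRNA. All 12 squamous markers looked at were expressed at tested levels, with S100A2, KRT17 and KRT5 the highest, and all 12 are also in the list of p63 targets used below. Their summed level was 1569 to 1638 FPKM after E2F1 siRNA, 1485 to 1608 FPKM after E2F3 siRNA and 2251 to 2308 FPKM after control siRNA. The highest genes weigh most in these sums. KRT17 alone averaged 767 FPKM in control, 400 FPKM with E2F1 siRNA and 368 FPKM with E2F3 siRNA. Taken singly with E2F1 siRNA, 9 of the 12 (75%) were lower, PKP1 was higher and 2 did not pass (limma, adjusted p under 0.05). Of all tested genes, 17.3% were lower and 20.5% higher in that comparison. With E2F3 siRNA, 6 (50%) were lower, FAT2 was higher and 5 did not pass. There, 16.4% of all tested genes were lower and 21.1% higher. The marker lists were chosen with earlier results of these data known, so such counts are a description only. Markers of simple and glandular epithelium (16 genes, 2 of them at 0 and 7 under 1 FPKM in every library) summed to 1308 to 1348 FPKM after E2F1 siRNA, 1282 to 1349 FPKM after E2F3 siRNA and 1697 to 1714 FPKM after control siRNA. KRT8, KRT18 and KRT7 weigh most here, with control means of 844, 518 and 292 FPKM. MUC1 averaged 41.1 FPKM in control, and each other gene of this list at most 5.60 FPKM. Of the 7 tested, 4 (57.1%) were lower after E2F1 siRNA and 5 (71.4%) after E2F3 siRNA, with 0 higher. With only the 6 libraries compared, 3 and 4 were lower. The 11 entries for ciliated and neuroendocrine markers were all under 1 FPKM. A marker list of stromal, immune and endothelial cells (14 genes, 9 under 1 FPKM in every library) summed to 37.3 to 41.2 FPKM after E2F1 siRNA, 33.6 to 36.2 FPKM after E2F3 siRNA and 34.6 to 42.7 FPKM after control siRNA. The part of these shifts in the members' results was not tested.

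Control replicate 3 stood apart from the other libraries. A set of 15 genes, most of them of granulocytes and red cells, was chosen after their values were seen. It summed to 305.92 FPKM in control replicate 3, with all 15 at 1 FPKM or more. In the other 8 libraries it summed to 19.5 to 26.02 FPKM, and 5 to 7 of the 15 reached 1 FPKM. IGKC, an immunoglobulin gene in the set, had 5.75 FPKM in control replicate 3 and at most 1.03 FPKM in any other library. S100A9, a granulocyte protein, had 60.81 FPKM in that library and at most 2.37 FPKM in any other. For 4 of the 9 members its level lay between those of the other 2 control libraries, and values without that library are given beside the calls below. The absolute depth of the libraries is unknown, since FPKM carry none, so no counting interval can be given.

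The 9 factors covered a wide range of levels in control cells. SOX15 averaged 60.2 FPKM, TP63 46.7 FPKM and TFAP2A 42.1 FPKM, above 86.2%, 81.9% and 79.9% of tested genes. PAX9 at 9.26 FPKM and TFAP2C at 9.20 FPKM overlapped in their libraries, and BNC1 followed at 6.52 FPKM, all below the median tested gene at 12.8 FPKM. SOX2 was low at 1.94 FPKM, and OVOL1 at 0.49 FPKM and ZNF750 at 0.367 FPKM were under the filter. The 3 control libraries of each other neighbouring pair in this order did not overlap. Levels are scaled per kilobase, but the annotation and any use of strand behind them are not given. The order across genes is therefore approximate.

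**Figure D1:**
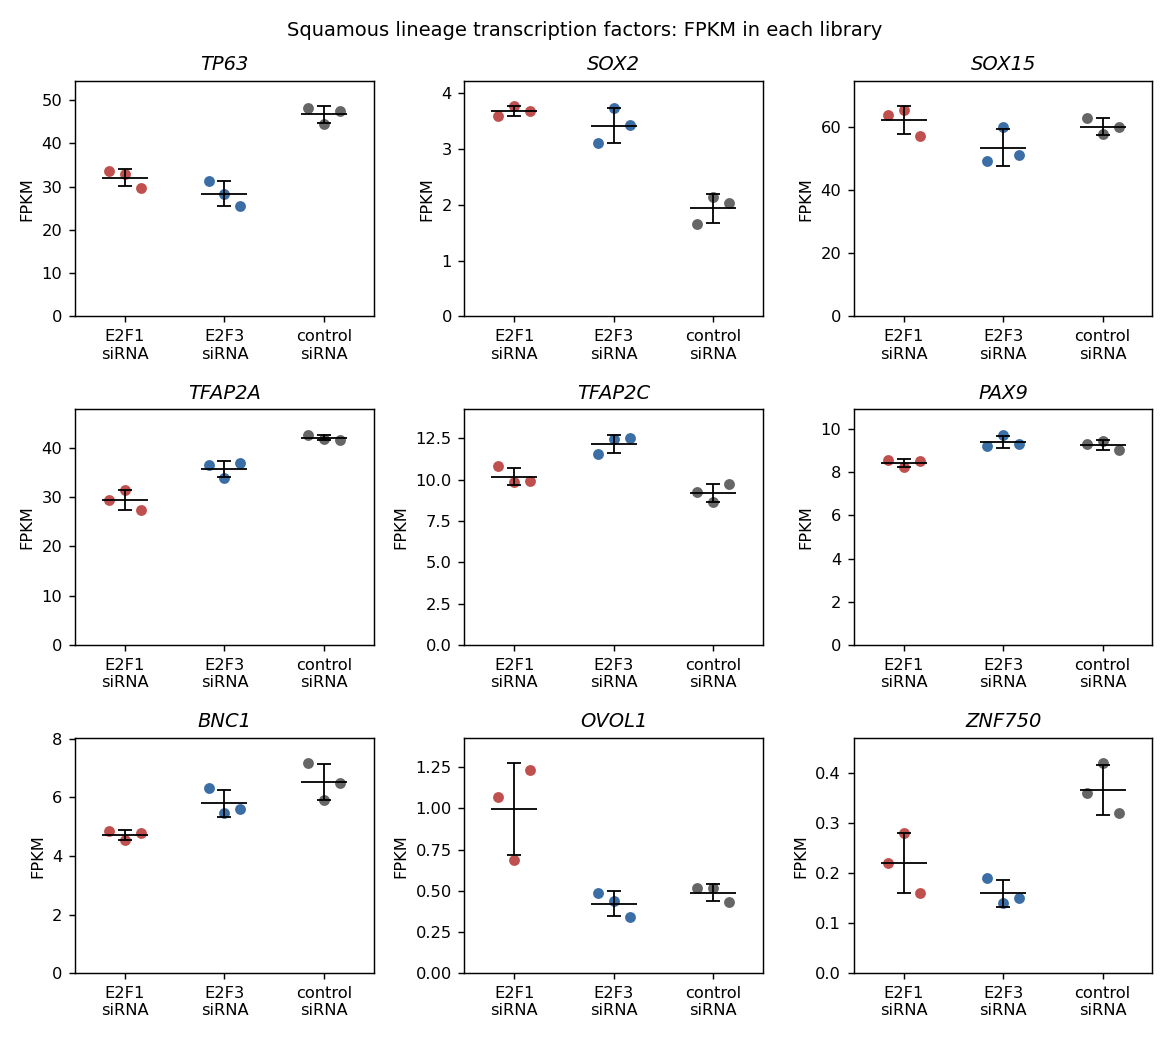
Level of each of the 9 factors (FPKM, axes from 0) in each library, with E2F1 siRNA, E2F3 siRNA and control siRNA from left to right; points are libraries, and the bar and whiskers are the mean and SD of 3. TP63 sits at 25.59 to 33.61 FPKM in the 6 knockdown libraries and at 44.52 FPKM or more in control, while SOX2 sits at 3.11 FPKM or more in the knockdown libraries and at 2.15 FPKM or less in control.

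After E2F1 siRNA, 4 of the 7 tested members changed against control: SOX2 rose, and TP63, TFAP2A and BNC1 fell (limma on log2(FPKM + 1), adjusted p under 0.05). Of all tested genes 37.8% were called in that comparison, 20.5% higher and 17.3% lower. After E2F3 siRNA, 4 of 7 also changed: SOX2 and TFAP2C rose, and TP63 and TFAP2A fell, where 37.6% of all tested genes were called, 21.1% higher and 16.4% lower. With 7 genes, counts of this size next to such a background are not read as setting the members apart. The median difference over the 7 was -0.12 after E2F1 siRNA and -0.15 after E2F3 siRNA (-0.085 without control replicate 1), against 0.028 and 0.042 over all tested genes. Groups did not overlap for 6 of the 7 members after E2F1 siRNA, where 50.3% of all tested genes had no overlap, and for 4 of 7 after E2F3 siRNA, where 49.5% had none. Both comparisons use the same 3 control libraries.

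**Figure D2:**
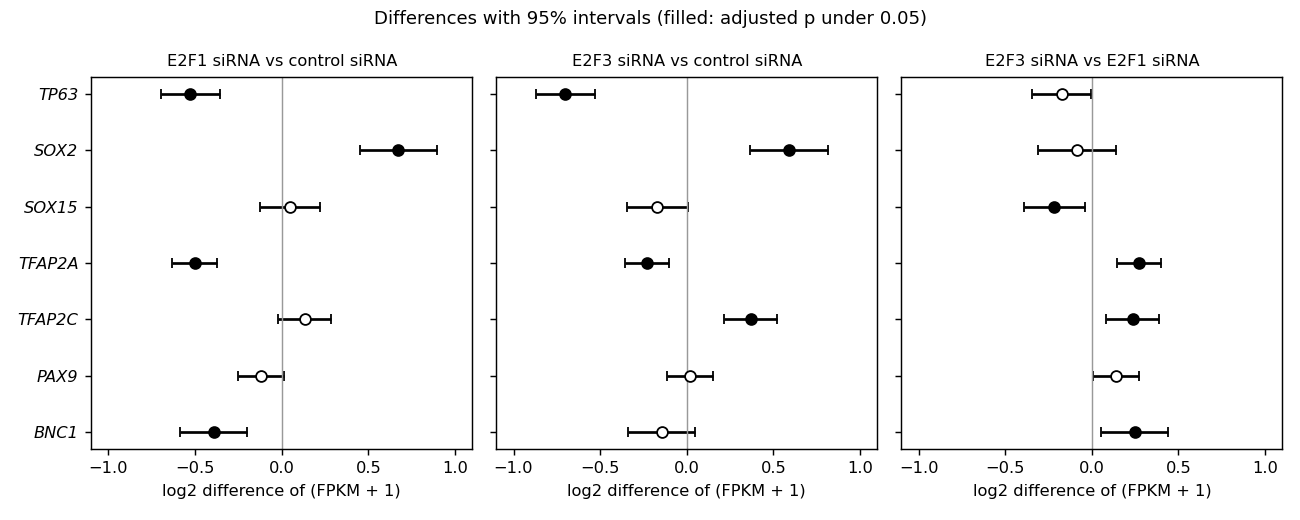
Difference of log2(FPKM + 1) for the 7 tested factors in the 3 comparisons, with 95% intervals from limma; filled points have an adjusted p under 0.05 and the grey line is no difference. TP63 and TFAP2A lie left of the line and SOX2 right of it in both comparisons with control, and TFAP2A, TFAP2C and BNC1 lie right of it when E2F3 siRNA is set against E2F1 siRNA.

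TP63 (chr3:189631416-189897279, plus strand, GRCh38), the master regulator of the group, was lower after either siRNA. It had 33.61, 32.92 and 29.76 FPKM after E2F1 siRNA, 31.39, 28.24 and 25.59 FPKM after E2F3 siRNA, and 48.08, 44.52 and 47.46 FPKM after control siRNA. No knockdown library reached the lowest control library, and the 2 knockdown groups overlapped each other. In such bulk RNA, fewer expressing cells and less RNA per cell cannot be told apart. The means were 68.7% of control after E2F1 siRNA and 60.8% of control after E2F3 siRNA. In log2 terms the E2F1 siRNA difference was -0.53 (SE 0.08, limma adjusted p = 4.70e-04) and the E2F3 siRNA difference -0.70 (SE 0.08, limma adjusted p = 8.71e-05). Without control replicate 3 they were -0.52 for E2F1 siRNA (limma adjusted p = 0.00266) and -0.69 for E2F3 siRNA (limma adjusted p = 6.48e-04). Set directly against E2F1 siRNA, E2F3 siRNA differed by -0.17 with a 95% interval of -0.34 to -0.0021, which did not pass (limma adjusted p = 0.0923); without E2F3 replicate 1 it passed (-0.25, limma adjusted p = 0.0242). MIR944 and, on the opposite strand, a processed pseudogene lie within TP63, and neither shares an exonic base with it.

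SOX2 (chr3:181711924-181714436, plus strand, a gene with a single exon inside an intron of SOX2-OT) went the other way. It had 3.6, 3.77 and 3.68 FPKM after E2F1 siRNA, 3.11, 3.73 and 3.43 FPKM after E2F3 siRNA, and 1.65, 2.15 and 2.03 FPKM after control siRNA. Each knockdown library was above each control library, and the knockdown groups overlapped. The means were 190% of control after E2F1 siRNA and 176% after E2F3 siRNA. In log2(FPKM + 1), which understates the change of so low a gene, the E2F1 siRNA difference was 0.67 (SE 0.10, limma adjusted p = 5.41e-04) and the E2F3 siRNA difference 0.59 (SE 0.10, limma adjusted p = 0.00136), and without control replicate 3 they were 0.70 for E2F1 siRNA (limma adjusted p = 0.00213) and 0.61 for E2F3 siRNA (limma adjusted p = 0.0046). E2F3 siRNA against E2F1 siRNA gave -0.08, with an interval of -0.31 to 0.14 (limma adjusted p = 0.523). The noncoding host SOX2-OT had at most 0.47 FPKM in any library and shares no exonic base with SOX2 in the annotation. TP63 and SOX2 lie on the same arm of chromosome 3 and changed in opposite directions after both siRNAs.

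SOX15 (chr17:7588178-7590170, minus strand), the most abundant of the 9 in control, did not pass against control. It had 64.1, 65.6 and 57.43 FPKM after E2F1 siRNA, 49.39, 60.15 and 51.34 FPKM after E2F3 siRNA, and 62.96, 57.78 and 60.0 FPKM after control siRNA. The 3 groups overlapped. The log2 difference was 0.05 after E2F1 siRNA (interval -0.13 to 0.22, limma adjusted p = 0.666) and -0.17 after E2F3 siRNA (interval -0.34 to 0.0055, limma adjusted p = 0.116). Without E2F3 replicate 2 the second passed (-0.25, limma adjusted p = 0.0173). The gene lies within MPDU1, a gene of sugar chain assembly on the opposite strand that shares 15 exonic bases (1.0% of its exons). MPDU1 averaged 58.4 ± 4.0 FPKM after E2F1 siRNA, 32.1 ± 3.6 FPKM after E2F3 siRNA and 53.9 ± 2.1 FPKM after control siRNA (SD, n = 3 each), a log2 difference of -0.73 after E2F3 siRNA (limma adjusted p = 9.11e-05). Whether reads were counted by strand is not given in the sources used here, and the part of MPDU1 reads in the SOX15 level was not tested.

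The 2 AP-2 factors were called in opposite directions against control only after E2F3 siRNA. TFAP2A (chr6:10393186-10419659, minus strand) had 29.49, 31.43 and 27.42 FPKM after E2F1 siRNA, 36.44, 33.89 and 36.9 FPKM after E2F3 siRNA, and 42.64, 41.86 and 41.66 FPKM after control siRNA. The 3 groups formed separate ranges, lowest after E2F1 siRNA and highest in control. The log2 difference after E2F1 siRNA was -0.50 (SE 0.06, limma adjusted p = 1.05e-04). After E2F3 siRNA it was -0.23 (SE 0.06, limma adjusted p = 0.0112). Without control replicate 3 the values were -0.51 for E2F1 siRNA (limma adjusted p = 6.59e-04) and -0.24 for E2F3 siRNA (limma adjusted p = 0.0297). E2F3 siRNA left a higher level than E2F1 siRNA, by 0.27 (SE 0.06, limma adjusted p = 0.00358). Antisense genes TFAP2A-AS2 and TFAP2A-AS1 share 11.4% and 5.3% of its exonic bases, and both were under 1 FPKM in every library.

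TFAP2C (chr20:56629302-56639283, plus strand) had 10.79, 9.87 and 9.88 FPKM after E2F1 siRNA, 11.55, 12.46 and 12.5 FPKM after E2F3 siRNA, and 9.24, 8.65 and 9.72 FPKM after control siRNA. Its 3 groups were also separate, with E2F3 siRNA highest and control lowest. It rose after E2F3 siRNA, by 0.37 in log2 (SE 0.07, limma adjusted p = 0.0023; 0.41 without control replicate 3, limma adjusted p = 0.00447). After E2F1 siRNA the difference of 0.13 did not pass (interval -0.02 to 0.29, limma adjusted p = 0.161). The summed level of both AP-2 genes was 39.6 ± 2.1 FPKM after E2F1 siRNA, 47.9 ± 1.5 FPKM after E2F3 siRNA and 51.3 ± 0.69 FPKM after control siRNA (SD, n = 3 each).

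Among the oral and basal factors, BNC1 (chr15:83255903-83284714, minus strand), a zinc finger protein of basal keratinocytes, had 4.84, 4.54 and 4.77 FPKM after E2F1 siRNA, 6.31, 5.48 and 5.59 FPKM after E2F3 siRNA, and 7.16, 5.91 and 6.49 FPKM after control siRNA. The E2F1 siRNA libraries lay under all others, and the E2F3 siRNA libraries overlapped control. BNC1 fell after E2F1 siRNA by 0.39 in log2 (limma adjusted p = 0.00552; 0.0188 without control replicate 3). After E2F3 siRNA the difference of -0.15 did not pass (interval -0.34 to 0.05, limma adjusted p = 0.217).

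PAX9 (chr14:36657568-36679715, plus strand), a paired-box factor of oral and pharyngeal epithelium, had 8.57, 8.23 and 8.52 FPKM after E2F1 siRNA, 9.2, 9.74 and 9.29 FPKM after E2F3 siRNA, and 9.29, 9.47 and 9.03 FPKM after control siRNA. The E2F1 siRNA libraries were the 3 lowest, yet the log2 difference of -0.12 did not pass (interval -0.25 to 0.01, limma adjusted p = 0.14). E2F3 siRNA and control overlapped, with a difference of 0.02 (interval -0.11 to 0.15, limma adjusted p = 0.812). The opposite-strand gene SLC25A21 shares 8.0% of the exonic bases of PAX9.

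The factors of differentiation were barely expressed. OVOL1 (chr11:65787022-65797219, plus strand), a zinc finger repressor that takes cells out of the basal program, had 1.07, 0.69 and 1.23 FPKM after E2F1 siRNA, 0.49, 0.44 and 0.34 FPKM after E2F3 siRNA, and 0.52, 0.52 and 0.43 FPKM after control siRNA. ZNF750 (chr17:82829435-82840578, minus strand, inside TBCD on the other strand), a driver of terminal differentiation, had 0.22, 0.28 and 0.16 FPKM after E2F1 siRNA, 0.19, 0.14 and 0.15 FPKM after E2F3 siRNA, and 0.36, 0.42 and 0.32 FPKM after control siRNA. OVOL1 was highest in the E2F1 siRNA libraries and ZNF750 in control, in each case with no overlap with the other groups.

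Both could be tested only without a filter, over 30309 genes. There OVOL1 was 0.41 higher after E2F1 siRNA in log2(FPKM + 1) (limma adjusted p = 0.0433), a call lost under 10 of 12 other settings (limma adjusted p up to 0.125), including the fit without control replicate 3. Its difference of -0.07 after E2F3 siRNA did not pass (limma adjusted p = 0.769). ZNF750 differed by -0.24 after E2F3 siRNA (limma adjusted p = 0.0165, and 0.0849 with 0.1 added in place of 1), and its -0.16 after E2F1 siRNA did not pass (limma adjusted p = 0.0706). An antisense gene shares 27.1% of the exonic bases of OVOL1. It averaged 0.17 FPKM after E2F1 siRNA, 0.02 FPKM after E2F3 siRNA and 0.07 FPKM after control siRNA. The part of its reads in the OVOL1 level was not tested.

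Set against each other, the 2 knockdowns differed in 4 of 7 tested members, where 45.5% of all tested genes were called, 23.5% higher and 22% lower after E2F3 siRNA. Their libraries did not overlap for 4 of 7 members, against 53.8% of all tested genes. TFAP2A, TFAP2C and BNC1 were higher after E2F3 siRNA than after E2F1 siRNA, by 0.27, 0.24 and 0.25 in log2 (limma adjusted p = 0.00358, 0.0182 and 0.0412), and SOX15 was lower, at -0.22 (limma adjusted p = 0.0451). The call of TFAP2A held in each of 17 other settings. That of TFAP2C was lost without E2F1 replicate 2 or 3 or E2F3 replicate 2 or 3 (limma adjusted p = 0.0533 to 0.0585), and those of BNC1 and SOX15 without control replicate 3 (limma adjusted p = 0.0577 and 0.0611) and under 7 and 10 further settings out of 17. PAX9 was higher by 0.14, which did not pass (limma adjusted p = 0.079), and the median over the 7 was 0.14 against 0.015 over all tested genes. In the fit without a filter OVOL1 was lower after E2F3 siRNA, at -0.48 (limma adjusted p = 0.0189), lost without E2F1 replicate 1 or E2F3 replicate 3 (limma adjusted p = 0.0622 and 0.0647).

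The balance between partners was read within each library, as a description. The ratio of TP63 to SOX2 was 9.34, 8.73 and 8.09 after E2F1 siRNA, 10.1, 7.57 and 7.46 after E2F3 siRNA, and 29.1, 20.7 and 23.4 after control siRNA. The ratio of TFAP2A to TFAP2C was 2.90 ± 0.25 after E2F1 siRNA, 2.94 ± 0.22 after E2F3 siRNA and 4.58 ± 0.28 after control siRNA (SD, n = 3 each). Both ratios were lower in all 6 knockdown libraries than in any control library. The ratio of TP63 to TFAP2A was 1.09 ± 0.05 after E2F1 siRNA and 0.80 ± 0.09 after E2F3 siRNA, against 1.11 ± 0.04 after control siRNA.

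**Figure D3:**
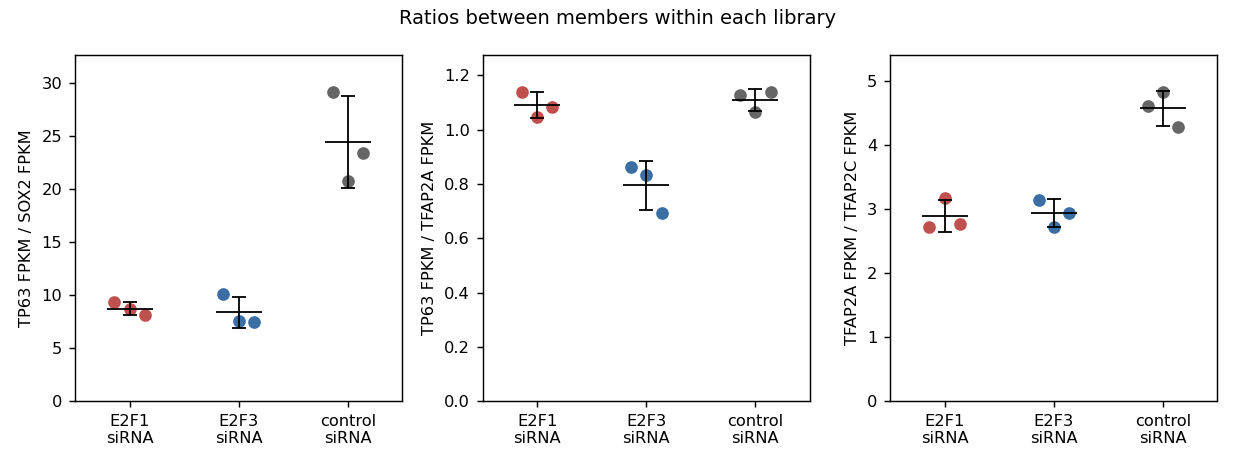
Ratio of FPKM between pairs of factors within each library (axes from 0), with E2F1 siRNA, E2F3 siRNA and control siRNA from left to right; points are libraries, and the bar and whiskers are the mean and SD of 3. TP63 over SOX2 is at most 10.1 in the knockdown libraries and at least 20.7 in control, and TP63 over TFAP2A is low only in the E2F3 siRNA libraries.

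The genes with the pattern closest to each factor called in both knockdowns were found over the 9 libraries, as the smallest root mean square difference of log2 values centred on control. For TP63 they were ITPR3 (0.0801), MAP3K14 (0.0819), GLMP (0.0885), TUBG2 (0.0929) and CDKN1A (0.0946) among 9914 genes. CDKN1A, the cyclin kinase inhibitor p21, averaged 66.7 ± 4.3 FPKM after E2F1 siRNA, 59.1 ± 4.0 FPKM after E2F3 siRNA and 98.0 ± 1.7 FPKM after control siRNA (SD, n = 3 each). For SOX2 they included CAMKK1 (0.0645) and ZNF263 (0.0728), and for TFAP2A they were SRPRA (0.0534), AGFG1 (0.0576) and EGFR (0.0625). EGFR, the growth factor receptor of basal keratinocytes, averaged 60.5 ± 4.5 FPKM after E2F1 siRNA, 74.8 ± 4.8 FPKM after E2F3 siRNA and 86.7 ± 0.26 FPKM after control siRNA (SD, n = 3 each).

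Of 46 genes known as targets of p63, 43 were tested. After E2F1 siRNA, 21 fell, 6 rose and 16 did not pass, with a median log2 difference of -0.24. That is 48.8% lower and 14% higher, beside 17.3% and 20.5% of all tested genes. This list and those below were chosen with earlier results of these data known, so such shares are a description only. After E2F3 siRNA, 17 fell, 11 rose and 15 did not pass, with a median of 0.0052 that became -0.04 with RLE scaling and ran from -0.04 to 0.02 when each library was left out in turn. That is 39.5% lower and 25.6% higher, beside 16.4% and 21.1% of all tested genes. The adhesion gene ITGB4, a hemidesmosome integrin, fell by 1.05 after E2F1 siRNA and by 0.98 after E2F3 siRNA, and KRT17, a keratin of activated basal cells, fell by 0.94 after E2F1 siRNA and by 1.06 after E2F3 siRNA. ITGA6, the partner of ITGB4, fell by 0.92 after E2F1 siRNA and by 0.19 after E2F3 siRNA (limma adjusted p = 0.0576 without control replicate 2), and LAMB3, a laminin chain of the basement membrane, fell by 0.85 after E2F1 siRNA and by 0.46 after E2F3 siRNA. KRT14, a basal keratin, fell by 0.66 after E2F1 siRNA and by 1.46 after E2F3 siRNA, and AQP3, a water and glycerol channel, fell by 0.40 after E2F1 siRNA and by 1.03 after E2F3 siRNA.

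Other listed targets rose. FGFR3, a fibroblast growth factor receptor, rose by 1.32 after E2F1 siRNA and by 0.55 after E2F3 siRNA. BICD2, a dynein adaptor, rose by 0.98 after E2F1 siRNA and by 1.35 after E2F3 siRNA, and PERP, a desmosomal protein, rose by 0.79 after E2F1 siRNA and by 0.68 after E2F3 siRNA. KRT16, a keratin of activated keratinocytes, rose by 0.58 after E2F1 siRNA and fell by 0.80 after E2F3 siRNA. IGFBP3, a binder of insulin-like growth factors, and PTHLH, a parathyroid hormone-like peptide, rose after E2F3 siRNA by 0.96 and by 0.65, and had differences of -0.11 and -0.21 that did not pass after E2F1 siRNA. Each rise or fall named passed in limma (adjusted p from 1.98e-07 to 0.0166).

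Between the knockdowns, 19 listed p63 targets were higher after E2F3 siRNA than after E2F1 siRNA and 11 lower, with 13 not passing and a median of 0.11, or 0.17 without E2F3 replicate 2 (44.2% higher and 25.6% lower, beside 23.5% and 22% of all tested genes). With upper-quartile scaling the split was 20 higher and 7 lower. IGFBP3 (1.07), PTHLH (0.86), FAT2 (0.79), an atypical cadherin, and ITGA6 (0.74) were the most raised. KRT16 (-1.38), KRT14 (-0.80), FGFR3 (-0.77) and AQP3 (-0.62) were the most lowered, and each of these 8 passed in limma. Summed squamous markers overlapped between the knockdowns, as given above.

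**Figure D4:**
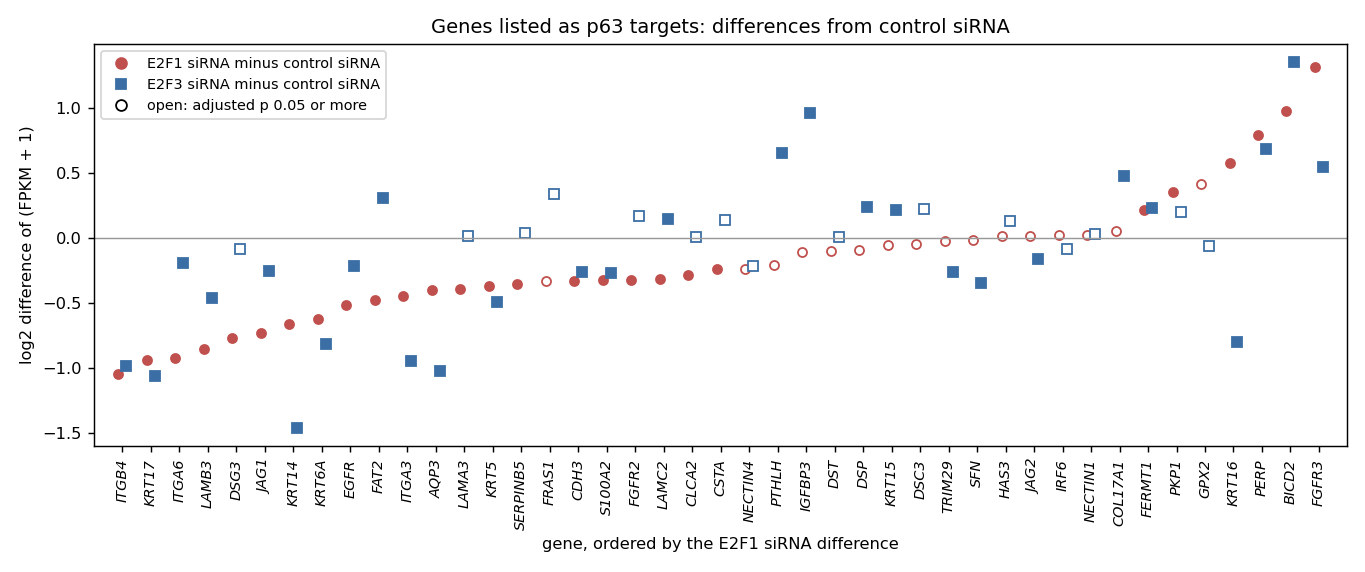
Difference of log2(FPKM + 1) from control siRNA for the 43 tested genes listed as p63 targets, ordered by the E2F1 siRNA value, with E2F1 siRNA as circles and E2F3 siRNA as squares; open symbols have an adjusted p of 0.05 or more in limma. ITGB4 and KRT17 lie near -1 for both siRNAs, FGFR3 and BICD2 lie at the top, and KRT16, IGFBP3 and PTHLH differ widely between the siRNAs.

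Of 43 other transcription factors of stratified epithelium, 28 were tested. After E2F1 siRNA, 9 fell and 6 rose (median -0.03, and from -0.10 without control replicate 2 to 0.03 without control replicate 3), and after E2F3 siRNA, 8 fell and 5 rose (median -0.08), with 5 falls when any of the 3 control replicates was left out. That is 32.1% lower and 21.4% higher after E2F1 siRNA, beside 17.3% and 20.5% of all tested genes, and 28.6% lower and 17.9% higher after E2F3 siRNA, beside 16.4% and 21.1%. KLF4, which acts in barrier formation, fell by 0.54 after E2F1 siRNA and by 1.16 after E2F3 siRNA. CEBPA, a basic leucine zipper factor, fell by 0.69 after E2F1 siRNA and by 0.24 after E2F3 siRNA, and EHF, an epithelial ETS factor, fell by 0.80 after E2F1 siRNA and by 0.66 after E2F3 siRNA. RUNX1, a factor of basal and hair follicle cells, fell by 0.71 after E2F1 siRNA and by 0.31 after E2F3 siRNA. HES1, a Notch target, fell by 0.72 after E2F1 siRNA and had -0.04, which did not pass, after E2F3 siRNA. CEBPB and MSX2 fell most among the rest after E2F3 siRNA, by 0.56 and by 0.47, and by 0.33 and by 0.29 after E2F1 siRNA. Leaving out 1 library at a time, in 9 fits, ended some of these calls. After E2F3 siRNA that of CEBPA was lost in 8 fits, that of EHF in 5 and that of RUNX1 in 4 (limma adjusted p up to 0.122), and after E2F1 siRNA that of CEBPB was lost in 6, that of MSX2 in 5 and that of EHF in 3 (limma adjusted p up to 0.149).

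PITX1, a homeodomain factor of oral epithelium, rose by 0.94 after E2F1 siRNA and by 0.56 after E2F3 siRNA, and ELF3, an epithelial ETS factor, rose by 0.32 after E2F1 siRNA and by 0.58 after E2F3 siRNA. VDR, the vitamin D receptor, and DLX3, a p63 target that promotes differentiation, rose after E2F1 siRNA by 0.67 and by 0.58 and had 0.17 and 0.27, which did not pass, after E2F3 siRNA. NFIB, a nuclear factor I protein, had -0.14 after E2F1 siRNA, which did not pass, and rose by 0.49 after E2F3 siRNA. KLF5, which supports basal proliferation, rose by 0.17 after E2F1 siRNA, a call lost in 3 of the 9 fits that leave out 1 library (limma adjusted p up to 0.0711), and fell by 0.45 after E2F3 siRNA. Each call passed in limma with an adjusted p of at most 0.0441. In the direct comparison 7 of the 28 (25%) were higher and 7 (25%) lower after E2F3 siRNA, beside 23.5% and 22% of all tested genes, led by HES1 (0.69) and NFIB (0.63) among the higher and by TP73 (-0.70), KLF5 (-0.62) and KLF4 (-0.62) among the lower.

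**Figure D5:**
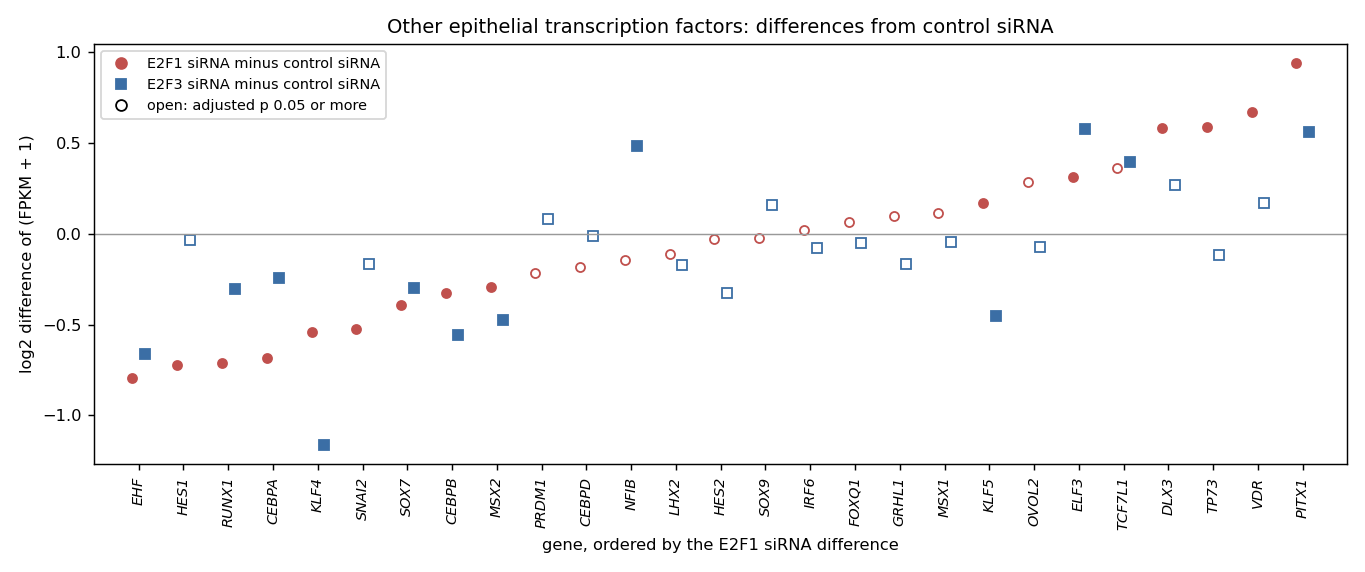
Difference of log2(FPKM + 1) from control siRNA for 27 of the 28 tested transcription factors of stratified epithelium outside the 9 described, ordered by the E2F1 siRNA value, with E2F1 siRNA as circles and E2F3 siRNA as squares; open symbols have an adjusted p of 0.05 or more in limma. PITX1 is the highest for E2F1 siRNA at 0.94 and KLF4 the lowest for E2F3 siRNA at -1.16.

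TP73, the paralogue of TP63, had 16.34, 18.79 and 15.82 FPKM after E2F1 siRNA, 9.03, 10.06 and 11.05 FPKM after E2F3 siRNA, and 11.4, 11.22 and 10.25 FPKM after control siRNA. It rose after E2F1 siRNA by 0.59 (SE 0.09, limma adjusted p = 6.12e-04), with each E2F1 siRNA library above all others, and had -0.12 after E2F3 siRNA (limma adjusted p = 0.329). Of 13 paralogues listed for the 9 factors, 4 were tested, and the other 9 averaged at most 0.21 FPKM in any group.

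Of 52 listed genes of late differentiation, a programme that OVOL1, ZNF750 and the AP-2 factors help to switch on, 22 were tested. After E2F1 siRNA, 8 fell and 1 rose (median -0.34, and from -0.36 without control replicate 2 to -0.23 without control replicate 1). Without control replicate 3 that median was -0.26. After E2F3 siRNA, 9 fell and 1 rose (median -0.30). The shares lower were 36.4% after E2F1 siRNA and 40.9% after E2F3 siRNA, beside the 17.3% and 16.4% of all tested genes given above. CLDN4, a tight junction claudin, fell by 1.31 after E2F1 siRNA and fell by 1.39 after E2F3 siRNA, and PRSS8, a protease of the epidermal barrier, fell by 0.79 after E2F1 siRNA and by 0.30 after E2F3 siRNA. KLK10, a kallikrein, fell by 0.50 after E2F1 siRNA and fell by 1.77 after E2F3 siRNA, and TGM1, the transglutaminase that cross-links the cornified envelope, fell by 0.72 after E2F1 siRNA and by 1.26 after E2F3 siRNA. FLG, encoding filaggrin, fell by 0.83 after E2F1 siRNA and by 0.33 after E2F3 siRNA, and SCEL, encoding sciellin, fell by 0.90 after E2F1 siRNA and had -0.01, which did not pass, after E2F3 siRNA. PPL, encoding the cornified envelope protein periplakin, fell by 0.40 after E2F1 siRNA and by 0.83 after E2F3 siRNA, while EVPL, encoding its partner envoplakin, rose by 0.52 after E2F1 siRNA and by 0.23 after E2F3 siRNA (limma adjusted p of these calls at most 0.0283, the last one lost with RLE scaling and when any of 5 libraries was left out). The calls of FLG and PRSS8 after E2F3 siRNA were each lost when any of 4 libraries was left out (limma adjusted p up to 0.0897). Levels in this list were uneven. Involucrin (IVL), loricrin (LOR) and KRT1 averaged at most 0.09 FPKM in any group, while KRT10, the partner of KRT1, averaged 15.8 ± 1.2 FPKM after E2F1 siRNA, 16.7 ± 2.1 FPKM after E2F3 siRNA and 15.7 ± 0.88 FPKM after control siRNA (SD, n = 3 each) and did not pass. KRT13, a keratin of inner mucosal epithelia, averaged 21.5 ± 1.9 FPKM after E2F1 siRNA and 22.7 ± 1.9 FPKM after E2F3 siRNA, against 30.3 ± 1.3 FPKM after control siRNA (SD, n = 3 each), and fell by 0.48 after E2F1 siRNA and by 0.40 after E2F3 siRNA (limma adjusted p = 0.00102 and 0.00304). S100A9 and S100A8, also in this list, did not pass; S100A8 had 37.07 FPKM in control replicate 3 and at most 1.67 FPKM in any other library.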

How the data were processed

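The files deposited by the authors hold FPKM per gene and library (a length- and library-scaled fragment level printed to 2 decimals, per the file headers). The submitters' processing notes name GRCh38 and the tools DESeq, HISAT2, HTSeq, TopHat and Trimmomatic; what each did, its version, the annotation and any use of strand are not given there. Of 59107 entries, 58381 had Ensembl identifiers, named from GENCODE 29 (56933 exactly, 1328 with the version dropped, 120 unnamed); 726 assembled loci and 12 text entries were left out. The 13777 genes with at least 1 FPKM in 3 of 9 libraries entered a single limma model (3.58.1, R 4.3.3, trend, not robust) of log2(FPKM + 1), a mean per group, with 3 contrasts, two-sided tests, Benjamini-Hochberg adjustment over all tested genes and a threshold of 0.05. The model was tested on simulated data. Exons and motifs were searched in Python 3.11.15. The members and lists were chosen with earlier results of these data known. Genes named from a list are up to 4 per direction and comparison with the largest called change, or are called in both knockdowns; IVL, LOR, KRT1, KRT10, S100A8, S100A9, MPDU1, PIK3CA and paralogues under the filter were named after their values were seen. Some genes that the rule names are left out here. Alternatives changed the added constant, filter, scaling, libraries, replicate term, threshold and robust fitting.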

Additional observations from a re-analysis of the deposited data

How the results depend on the processing

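Against control, the calls of TP63, SOX2, TFAP2A and TFAP2C and that of BNC1 after E2F1 siRNA kept their direction and side of the 0.05 threshold under every alternative tried that could test them. The TP63 log2 difference ranged over -0.56 to -0.48 after E2F1 siRNA and over -0.77 to -0.63 after E2F3 siRNA. With a filter of 5 FPKM, which leaves SOX2 out, 0 members were higher after E2F1 siRNA and 1 after E2F3 siRNA; with no filter, 2 were higher after E2F1 siRNA, OVOL1 being the addition. At an adjusted p under 0.01, 1 member was lower after E2F3 siRNA. For E2F3 siRNA against E2F1 siRNA, 1 member was higher and 0 were lower at an adjusted p under 0.01. There, 0 were lower with only the 6 libraries compared or with upper-quartile scaling. Leaving out each library in turn gave 1 to 3 members higher and 0 to 1 lower there, 1 higher and 3 lower after E2F1 siRNA, and 2 higher and 2 to 3 lower after E2F3 siRNA against control. The PAX9 difference after E2F3 siRNA, never called, turned to -0.018 with RLE scaling and ran from -0.0024 to 0.035 when each library was left out. PAX9 passed in the direct comparison with upper-quartile scaling (0.18, limma adjusted p = 0.0289), and ZNF750 passed after E2F1 siRNA without a filter and without E2F1 replicate 2 (-0.20, limma adjusted p = 0.0392). The causes of these changes were not tested beyond what the settings themselves fix.

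Pairing by replicate number was looked for in the correlations between deviations of libraries. The 9 with the same number ran from -0.106 to 0.112, and the 18 others from -0.0768 to 0.0692. Same-number values between the 2 knockdowns were 0.112, 0.0292 and 0.0516, and those between control and a knockdown were all negative (-0.106 to -0.0054). With 3 libraries per group, such values cannot decide whether the samples were paired. With the replicate block, 0 members were lower in the direct comparison, SOX15 being lost (limma adjusted p = 0.0518), and no other call of a tested member changed. Depth per library is unknown, so nothing below about 1 FPKM can be given a counting error. The alternatives for OVOL1 and ZNF750 without a filter, beyond that filter itself, were chosen after seeing the data.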

Other observations

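TP63 and SOX2 lie on the long arm of chromosome 3, which is often gained in squamous carcinomas, and 24 of 27 listed genes of that arm were tested. After E2F1 siRNA, 6 rose and 8 fell (25% and 33.3%, beside 20.5% and 17.3% of all tested genes), and after E2F3 siRNA, 7 rose and 3 fell (29.2% and 12.5%, beside 21.1% and 16.4%). The rises after E2F3 siRNA were 3 with RLE scaling, and 3 or 4 when control replicate 1 or 3 or any E2F3 siRNA library was left out. FNDC3B, a fibronectin domain protein, fell by 0.89 after E2F1 siRNA and by 0.48 after E2F3 siRNA, and CLDN1, a tight junction claudin, fell by 0.49 after E2F1 siRNA and by 0.76 after E2F3 siRNA. ACTL6A, a chromatin remodelling subunit known to work with p63 in squamous carcinoma, rose by 0.50 after E2F1 siRNA and by 0.22 after E2F3 siRNA. TFRC, the transferrin receptor, fell by 0.74 after E2F1 siRNA and had 0.09, which did not pass, after E2F3 siRNA. PRKCI, an atypical protein kinase C, fell by 0.51 after E2F1 siRNA and rose by 0.19 after E2F3 siRNA (limma adjusted p = 0.0559 without control replicate 3). These calls are limma's, with adjusted p from 4.70e-06 to 0.0146.

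In the direct comparison 6 of these 24 genes (25%) were higher and 4 (16.7%) lower after E2F3 siRNA than after E2F1 siRNA, beside 23.5% and 22% of all tested genes. PIK3CA, the lipid kinase gene of the same arm, averaged 6.99 ± 0.98 FPKM after E2F1 siRNA, 7.19 ± 0.61 FPKM after E2F3 siRNA and 7.30 ± 0.60 FPKM after control siRNA (SD, n = 3 each) and did not pass in either comparison with control.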
